A study of Homo sapiens with 6 samples.

Results

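The collagen chain genes of HepG2 cells were examined before and after knockdown of PAIP1, a protein that binds the poly(A)-binding protein and acts in translation initiation. A gene was taken as a collagen chain when it was annotated as protein-coding and its symbol had the form COL, a number, A and a number. In total, 34 of the 30987 genes in the count table met this rule. HepG2 is a human line grown from a liver tumour, and it is a single line of epithelial, hepatocyte-like cells. There were 3 control libraries from cells transfected with non-targeting control siRNA (Ctrl) and 3 libraries from cells transfected with PAIP1 siRNA (siPAIP1), all harvested 48 h after transfection with a lipid reagent. The knockdown rested on a single siRNA duplex, the one the study calls siRNA3, and the study describes the libraries of a group as biological replicates. Poly(A) RNA was sequenced in pairs, and fragments were counted per gene.

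Collagens are proteins of the extracellular matrix in which 3 chains wind around each other. Fibrillar collagens such as types I, II and V form cable-like fibrils, FACIT collagens such as types IX and XVI sit on the surface of fibrils, type IV forms the sheet of basement membranes, and type VI forms beaded filaments. The chains are hydroxylated and glycosylated in the endoplasmic reticulum, folded with the help of the chaperone HSP47, exported, trimmed at their ends and cross-linked outside the cell. In liver, fibrillar collagens are made mainly by stellate cells and fibroblasts. Type XVIII collagen, whose tail is released as endostatin, is known as a product of hepatocytes. Genes for chains of the same trimer can sit head to head, as COL4A1 and COL4A2 do.

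Sequences just upstream of a chain gene are shown for COL9A2, the collagen gene with the lowest adjusted p, and for the COL4A1 and COL4A2 pair, of which only the latter was expressed at more than a few fragments. Both are RefSeq promoter sequences on GRCh38, written 5′ to 3′ in the direction of COL9A2 or COL4A2. Capitals mark the GC box GGGCGG, on either strand, and the CCAAT box. The COL9A2 stretch (chr1:40317287-40317536, minus strand) holds the 250 bases before the RefSeq start, and the COL4 stretch (chr13:110307158-110307283, plus strand) holds the 126 bases between the RefSeq starts of the 2 genes. In GENCODE 44 longer transcripts of COL9A2 and COL4A2 span these stretches.
COL9A2 upstream: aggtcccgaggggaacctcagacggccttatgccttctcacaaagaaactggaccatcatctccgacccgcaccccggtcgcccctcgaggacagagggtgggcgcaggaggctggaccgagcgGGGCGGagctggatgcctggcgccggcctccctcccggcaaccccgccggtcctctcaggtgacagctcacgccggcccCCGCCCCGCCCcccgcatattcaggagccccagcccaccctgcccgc
COL4A1 to COL4A2: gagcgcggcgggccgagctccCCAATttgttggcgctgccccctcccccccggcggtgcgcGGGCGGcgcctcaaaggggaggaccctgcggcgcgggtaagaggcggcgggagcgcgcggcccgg
The COL9A2 stretch was 71.6% G and C and held 3 GC boxes, of which 2 overlap by 1 base on the opposite strand. It held no CCAAT and no TATAAA. The COL4 stretch was 80.2% G and C and held 1 GC box and 1 CCAAT. Of 35116 RefSeq promoters, 42.6% held a GC box in their 250 upstream bases, 32.0% held CCAAT and 10.7% held TATAAA, and in the last 126 bases 34.6% held a GC box and 21.1% held CCAAT. A match to these letters is a description of the sequence. No promoter entry was matched for COL9A3, COL5A2 or COL6A1.

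The libraries held 29313211 to 34659866 counted fragments, and TMM scaling factors ran from 0.9643 to 1.029. PAIP1 stood at 26.83, 22.96 and 26.01 FPKM (fragments scaled to exon length and to the mapped fragments of the library) in Ctrl and at 8.29, 6.54 and 5.47 FPKM in siPAIP1. Its log2 fold change was -1.93 (SE 0.13, edgeR's quasi-likelihood test, adjusted p = 0.000918), and the exact permutation test of the FPKM values gave 0.1, the smallest p that 3 against 3 libraries allow. The library siPAIP1 replicate 3 stood apart. CPM are counts scaled to the library total after TMM adjustment. Among genes with a mean of at least 10 CPM in their group, 375 exceeded the average of replicates 1 and 2 by more than 2-fold in siPAIP1 replicate 3. The same measure gave at most 6 genes in any other library. Results that rest on this library are therefore given with and without it.

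Of the 34 collagen genes, 12 passed the filter on low counts and were tested, and 22 were removed by it. The 6 with the highest FPKM, COL18A1, COL9A3, COL27A1, COL9A2, COL16A1 and COL7A1, held 98.06% to 98.74% of all collagen fragments in each library. The collagen genes together took 0.0634%, 0.0803% and 0.0737% of the counted fragments in Ctrl. They took 0.068%, 0.0717% and 0.143% in siPAIP1, so that replicate 3 lay above all others and the other siPAIP1 libraries lay within the Ctrl range. COL1A1, a chain of the main fibrillar collagen of fibrotic liver, was near the limit of detection in this line. In such bulk libraries a change in the number of cells that make a chain and a change in RNA per cell cannot be told apart.

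**Figure D1:**
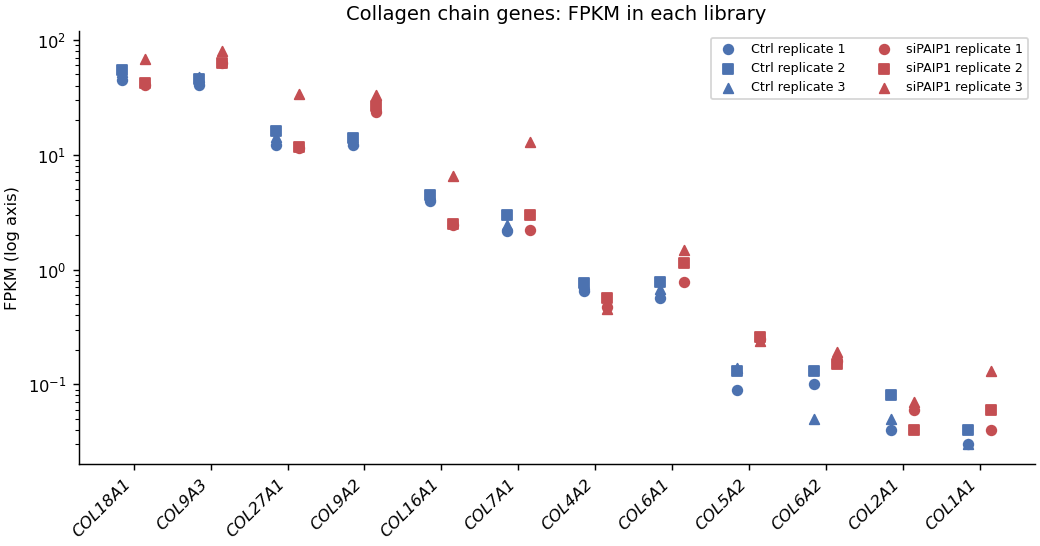
FPKM (log axis) of the 12 tested collagen genes in each of the 3 Ctrl (blue) and 3 siPAIP1 (red) libraries, with 1 symbol per replicate number. COL18A1 and COL9A3 lie highest, at 40.19 to 80.15 FPKM, and COL1A1 lies at 0.03 to 0.13 FPKM; the red triangles of COL27A1, COL16A1 and COL7A1 are siPAIP1 replicate 3.

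After PAIP1 knockdown, the type IX chains COL9A2 and COL9A3 and the type V chain COL5A2 rose, and the type IV chain COL4A2 fell. These were the 3 higher and 1 lower of the 12 tested genes at an adjusted p under 0.05. Among all 15528 genes tested, 5.68% were called higher and 6.20% lower. With a fold change of at least 2 as a further condition, COL9A2 alone was called higher (1.11% of all genes) and no collagen gene lower (1.10% of all genes). Without siPAIP1 replicate 3 the log2 fold change of COL9A2 was 0.87, under the 2-fold limit. With no filter on low counts COL6A1 and COL7A1 were called higher too, 5 in all, against 3.85% of all genes. At an unadjusted p under 0.05 there were 5 of the 12, against 4436 of all genes. The siPAIP1 libraries all lay above the Ctrl libraries for 4 of the 12 (19.0% of all genes) and all below for 1 (17.6% of all genes). The median log2 fold change was 0.67 over the 12 genes and 0.03 over all genes tested. Without siPAIP1 replicate 3 it was 0.19 over the same 12 genes and -0.00083 over all genes. Of the 12, COL6A2 reached the filter's level in 2 Ctrl and 3 siPAIP1 libraries, COL1A1 and COL2A1 in 1 Ctrl and 2 siPAIP1 libraries, and the other 9 in every library.

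Type IX collagen decorates the type II fibrils of cartilage and is assembled from COL9A1, COL9A2 and COL9A3 chains. COL9A2 (ENSG00000049089.13, chromosome 1, 40300489 to 40317813 in GRCh38, minus strand) stood at 12.05, 13.86 and 13.10 FPKM in Ctrl and at 23.54, 26.41 and 32.91 FPKM in siPAIP1. All siPAIP1 libraries lay well above all Ctrl libraries, with replicate 3 the highest. The means were 13.003 ± 0.909 and 27.6 ± 4.80 FPKM (SD, n = 3), and the values rested on 1254 to 3310 fragments a library. The log2 fold change was 1.07 (SE 0.16, edgeR's quasi-likelihood test, adjusted p = 0.00766). Without siPAIP1 replicate 3 it was 0.87 (edgeR, adjusted p = 7.36e-07). The call was lost without Ctrl replicate 1 (edgeR, adjusted p = 0.0537) and without Ctrl replicate 3 (edgeR, adjusted p = 0.0569), at log2 fold changes of 1.01 and 1.06.

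COL9A3 (ENSG00000092758.15, chromosome 20, 62816244 to 62841159, plus strand) stood at 40.80, 45.86 and 47.26 FPKM in Ctrl and at 62.66, 62.79 and 80.15 FPKM in siPAIP1. Again the groups did not overlap and replicate 3 was the highest. The log2 fold change was 0.60 (SE 0.14, edgeR's quasi-likelihood test, adjusted p = 0.0378), and it was 0.42 without siPAIP1 replicate 3 (edgeR, adjusted p = 0.000458). The call was lost without Ctrl replicate 1, 2 or 3 or without siPAIP1 replicate 2, with edgeR's adjusted p from 0.0563 to 0.158. Exons of COL9A3 overlap those of TCFL5 on the opposite strand, a gene with 506 to 738 fragments a library, and how strand was used in counting is not given in the sources used here.

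The third chain of type IX was almost absent. COL9A1 had 0 fragments in every Ctrl library, and 0, 1 and 0 fragments in siPAIP1 replicates 1, 2 and 3. A count of 0 allows up to 3 fragments, so the chain was not detectable at this depth in 5 of 6 libraries, while COL9A2 and COL9A3 had 1254 or more in each. The ratio of COL9A3 to COL9A2, both in FPKM, was 3.386, 3.309 and 3.608 in Ctrl and 2.662, 2.378 and 2.435 in siPAIP1. It was lower in every siPAIP1 library (3.43 ± 0.155 against 2.49 ± 0.15, SD, n = 3, exact permutation p = 0.1, the smallest possible). This ratio was chosen after the values of both genes had been seen.

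**Figure D2:**
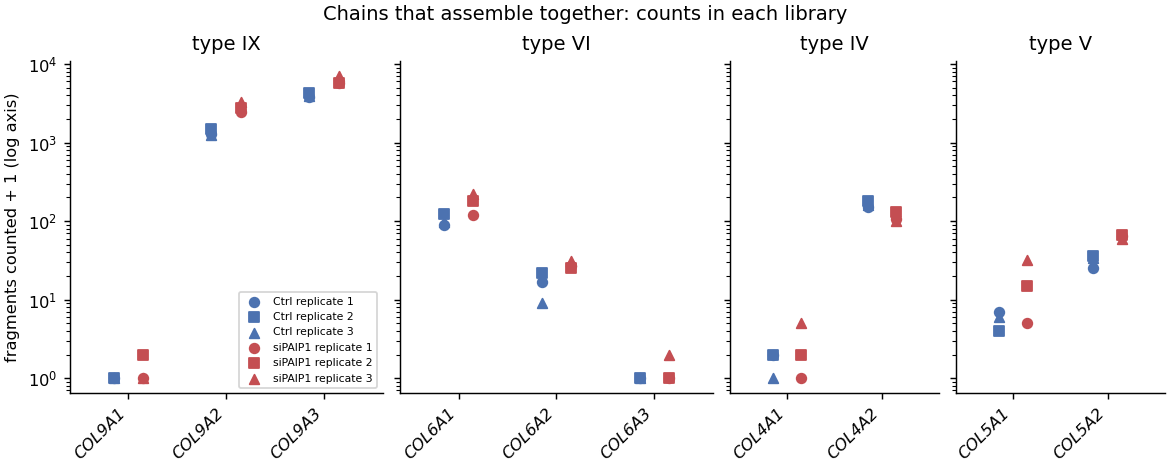
Counted fragments plus 1 (log axis) of chains that are known to assemble with each other, for types IX, VI, IV and V, in each of 3 Ctrl (blue) and 3 siPAIP1 (red) libraries. COL9A1, COL6A3 and COL4A1 lie at 4 fragments or fewer in every library, beside partner chains with far more.

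Type IV collagen is built mostly of COL4A1 and COL4A2 chains. COL4A2 (ENSG00000134871.17, chromosome 13, 110305812 to 110513209, plus strand) stood at 0.65, 0.76 and 0.75 FPKM in Ctrl and at 0.47, 0.57 and 0.45 FPKM in siPAIP1. It was lower in every siPAIP1 library, with 152, 178 and 158 fragments against 107, 131 and 99. The log2 fold change was -0.57 (SE 0.13, edgeR's quasi-likelihood test, adjusted p = 0.0358). It was near that value without siPAIP1 replicate 3, at -0.55 (edgeR, adjusted p = 0.0119), while leaving out any other single library lost the call (edgeR, adjusted p from 0.0686 to 0.130).

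COL4A1, whose RefSeq start lies at the other end of the printed COL4 stretch from that of COL4A2, had 1, 1 and 0 fragments in Ctrl and 0, 1 and 4 fragments in siPAIP1. The pair thus differed widely in level in all libraries. The other type IV chains in the count table, COL4A5 and COL4A6, had at most 5 and 2 fragments in a library. The antisense genes COL4A2-AS1 and COL4A2-AS2 overlap exons of COL4A2 and were not analysed here.

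Type V collagen co-assembles with type I and sets the thickness of fibrils. COL5A2 (ENSG00000204262.11, chromosome 2, 189031898 to 189225312, minus strand) had 24, 35 and 33 fragments in Ctrl and 63, 66 and 58 fragments in siPAIP1. This is a low level, 0.12 ± 0.0265 against 0.25 ± 0.01 FPKM (SD, n = 3), but every siPAIP1 library lay above every Ctrl library and they differed little among themselves. The log2 fold change was 0.98 (SE 0.21, edgeR's quasi-likelihood test, adjusted p = 0.0271), and it was 0.97 without siPAIP1 replicate 3 (edgeR, adjusted p = 0.00853). Leaving out any other single library lost the call (edgeR, adjusted p from 0.0642 to 0.0984). Its partner COL5A1 had 6, 3 and 5 fragments in Ctrl and 4, 14 and 31 in siPAIP1, and was removed by the filter.

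Type VI collagen forms beaded filaments around cells from COL6A1, COL6A2 and COL6A3 or a related chain. COL6A1 (ENSG00000142156.14, chromosome 21, 45981770 to 46005050, plus strand) stood at 0.56, 0.78 and 0.68 FPKM in Ctrl and at 0.78, 1.15 and 1.48 FPKM in siPAIP1. The highest Ctrl library and the lowest siPAIP1 library shared a value, and the difference did not pass the test (log2 fold change 0.75, SE 0.27, edgeR's quasi-likelihood test, adjusted p = 0.123). Without siPAIP1 replicate 3 the log2 fold change was 0.45 (edgeR, adjusted p = 0.0933), and without siPAIP1 replicate 1 it was 0.97 and passed (edgeR, adjusted p = 0.042). COL6A2 (ENSG00000142173.14, chromosome 21, 46098112 to 46132848, plus strand) had 16, 21 and 8 fragments in Ctrl and 26, 24 and 30 in siPAIP1. All siPAIP1 libraries lay above Ctrl, yet the log2 fold change of 0.81 (SE 0.35) did not pass either (edgeR, adjusted p = 0.175). COL6A3 had 0 fragments in every library but siPAIP1 replicate 3, which had 1.

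**Figure D3:**
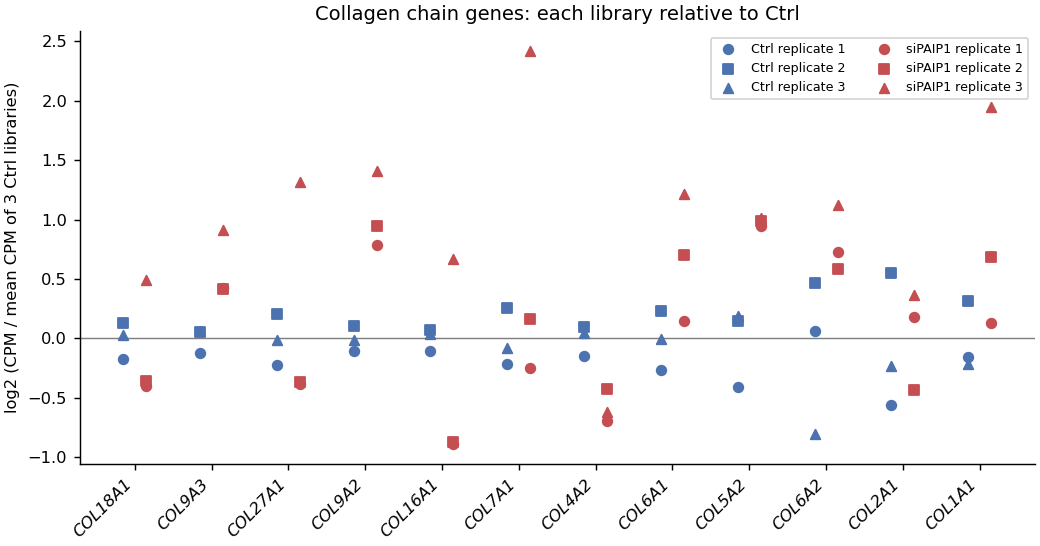
Each library of the 12 tested collagen genes as the log2 of its CPM relative to the Ctrl average of 3 libraries. For COL9A2, COL9A3, COL5A2 and COL6A2 all red symbols lie above the blue ones, and for COL4A2 all lie below. For COL18A1, COL27A1 and COL16A1 siPAIP1 replicate 3 (red triangle) lies above Ctrl while replicates 1 and 2 lie below.

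COL18A1, COL27A1, COL16A1 and COL7A1 shared another pattern, in which siPAIP1 replicate 3 went its own way. COL18A1 (ENSG00000182871.14, chromosome 21, 45405165 to 45513720, plus strand), the type XVIII chain, stood at 44.68, 54.95 and 52.39 FPKM in Ctrl. In siPAIP1 it stood at 40.19 and 41.85 FPKM in replicates 1 and 2 and at 67.95 FPKM in replicate 3. The first of these lie below every Ctrl library and the last above, so that the log2 fold change over all libraries was -0.03 (SE 0.24, edgeR's quasi-likelihood test, adjusted p = 0.951). Exons of COL18A1 overlap those of SLC19A1, a folate carrier gene on the opposite strand with 1265 to 1631 fragments a library.

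COL27A1 (ENSG00000196739.14, chromosome 9, 114155537 to 114312511, plus strand) encodes a fibrillar chain known from cartilage. It stood at 12.07, 16.15 and 14.27 FPKM in Ctrl and at 11.41, 11.64 and 33.65 FPKM in siPAIP1. COL16A1 (ENSG00000084636.17, chromosome 1, 31652263 to 31704319, minus strand), a FACIT chain, stood at 3.98, 4.46 and 4.48 FPKM in Ctrl and at 2.43, 2.49 and 6.54 FPKM in siPAIP1. Both repeat the order seen for COL18A1. With all libraries their log2 fold changes were 0.43 (SE 0.44, edgeR's quasi-likelihood test, adjusted p = 0.552) and -0.17 (SE 0.40, edgeR, adjusted p = 0.807).

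COL7A1 (ENSG00000114270.15, chromosome 3, 48564073 to 48595329, minus strand) encodes the chain of the anchoring fibrils that fix the basement membrane of skin to the tissue beneath. It stood at 2.17, 2.98 and 2.42 FPKM in Ctrl and at 2.22, 2.98 and 12.89 FPKM in siPAIP1. Replicates 1 and 2 of siPAIP1 thus lay within or at the edge of the Ctrl range, and replicate 3 alone, with 4201 fragments against at most 1031 elsewhere, set the log2 fold change of 1.28 (SE 0.65, edgeR's quasi-likelihood test, adjusted p = 0.237).

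Without siPAIP1 replicate 3, the calls on these genes changed. The genes had been grouped by where this library lay, after the values had been seen. A shift without it followed from that choice and is not separate evidence of a fall. With that library left out COL16A1 was lower, at a log2 fold change of -0.88 (SE 0.082, edgeR, adjusted p = 1.44e-06). So was COL18A1, at -0.38 (SE 0.085, edgeR, adjusted p = 0.0038), and COL27A1, at -0.37 (SE 0.094, edgeR, adjusted p = 0.00872). COL7A1 stood at -0.03 (SE 0.12, edgeR, adjusted p = 0.885). With COL4A2 this made 4 lower and, with COL9A2, COL9A3 and COL5A2, 3 higher of the 13 collagen genes tested in 5 libraries. In that fit 12.4% of all 15732 genes tested were called lower and 11.8% higher.

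**Figure D4:**
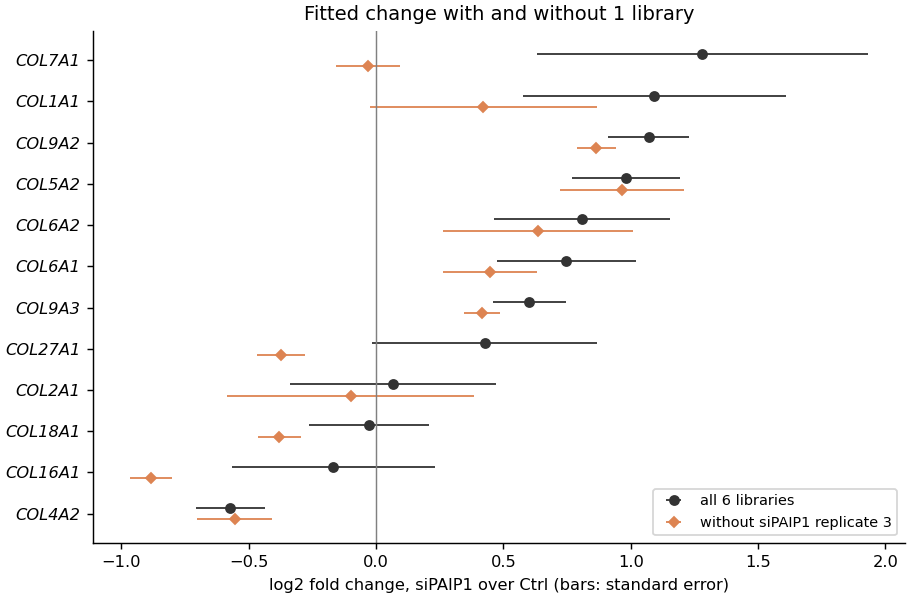
Fitted log2 fold change of siPAIP1 over Ctrl for the 12 tested collagen genes with all 6 libraries (black) and without siPAIP1 replicate 3 (orange), with bars for the standard error. COL9A2, COL9A3, COL5A2 and COL4A2 keep their side of 0 in both fits, COL7A1 moves from 1.28 to -0.03, and COL16A1 moves from -0.17 to -0.88.

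Genes with long transcripts rich in G and C had raised values in siPAIP1 replicate 3, but most genes high in this library were of other kinds. Among tested genes, 6.24% had a log2 ratio of at least 1 between this library and the mean of the other siPAIP1 libraries (CPM plus 0.1), and 4 of the 12 collagen genes did: COL7A1, COL27A1, COL16A1 and COL1A1. For 15323 of the 15528 tested genes (98.7%), GC content and length of the canonical transcript in GENCODE 44 could be assigned. The 225 genes with a transcript over 60% G and C and over 5000 bases had a median log2 ratio of 0.98, and 109 of them (48.4%) were at or above 1. The other 15098 genes had a median of -0.016, and 823 of them (5.5%) were at or above 1.

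Of the tested collagen genes, 7 fell in that class: COL18A1, COL27A1, COL7A1, COL16A1, COL4A2, COL1A1 and COL2A1. Within it COL7A1 (64.8% G and C, 9231 bases) had the largest ratio of the 7 and COL4A2 (61.8%, 6446 bases) was not raised at all. COL9A2 (65.2%, 2852 bases) and COL9A3 (67.4%, 2497 bases) are as rich in G and C but short, and COL5A2 (6829 bases) is long but 48.3% G and C. Their log2 ratios were 0.54, 0.49 and 0.05, so COL9A2 and COL9A3 were raised in this library too. The class as a whole had a median log2 fold change of 0.43 with all libraries and of -0.07 without siPAIP1 replicate 3. Without it, 16.9% of the class were called lower and 14.7% higher. The class limits were chosen after the data had been seen, and the part of transcript GC content and length in the values of this library was not tested.

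**Figure D5:**
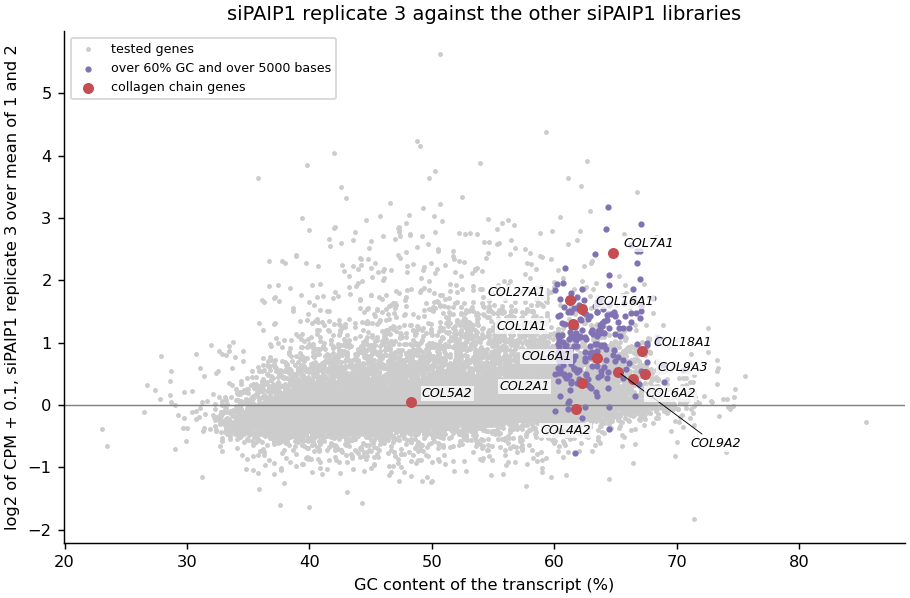
GC content of the canonical transcript (%) against the log2 ratio of CPM plus 0.1 in siPAIP1 replicate 3 over the mean of replicates 1 and 2, for 15323 tested genes (grey), for 225 genes over 60% G and C and over 5000 bases (purple) and for the 12 tested collagen genes (red). Purple genes centre on 0.98, and COL7A1 is the highest collagen gene, while COL5A2 and COL4A2 lie near 0.

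The fibrillar chains COL1A1 and COL2A1 were at the edge of detection. COL1A1 (ENSG00000108821.13, chromosome 17, 50184101 to 50201632, minus strand) had 8, 11 and 7 fragments in Ctrl and 10, 15 and 31 in siPAIP1. Its highest value was again siPAIP1 replicate 3, and the log2 fold change of 1.09 (SE 0.52) did not pass the test (edgeR, adjusted p = 0.211). Without that library it was 0.42 (edgeR, adjusted p = 0.541). A long non-coding gene on the opposite strand that overlaps its exons had 29, 53 and 33 fragments in Ctrl and 26, 42 and 103 in siPAIP1, more than COL1A1 in each library, so the origin of the COL1A1 fragments is uncertain. COL2A1 (ENSG00000139219.17, chromosome 12, 47972967 to 48004554, minus strand), which forms the cartilage fibril that type IX decorates, had 7, 15 and 8 fragments in Ctrl and 12, 8 and 12 in siPAIP1. The groups overlapped (log2 fold change 0.07, SE 0.41, edgeR, adjusted p = 0.931).

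The 22 collagen genes that the filter removed were 5 fibrillar, 5 FACIT, 3 type IV, 3 transmembrane, 2 type VI and 2 short-chain genes, the multiplexin COL15A1 and COL26A1. Besides COL5A1, the genes with at least 10 fragments in any library were COL8A2, COL11A2 and COL24A1. COL8A2 had 2, 7 and 11 fragments in Ctrl and 8, 13 and 4 in siPAIP1. COL11A2 had 11, 6 and 4 in Ctrl and 7, 3 and 12 in siPAIP1, and COL24A1 had 2, 8 and 5 in Ctrl and 10, 3 and 9 in siPAIP1. In each of them the groups overlapped. The other 18 had at most 8 fragments in a library. COL1A2 and COL3A1, the other main fibrillar chains of liver scar, were not among the 30987 genes counted. Nor were 8 further chains known in human, so none of these was analysed.

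Genes that modify, fold, export and cut collagen were read next, as lists. Each list is set against the 5.68% of all genes called higher and the 6.20% called lower. Of 14 genes for chain hydroxylation and glycosylation, 12 were tested, 4 fell and none rose (median log2 fold change -0.02). The highest were P4HB, the shared subunit of prolyl hydroxylase, at 366 ± 5.04 FPKM in Ctrl and 393 ± 24.9 in siPAIP1 (SD, n = 3), and the lysyl hydroxylase PLOD1 at 55.0 ± 1.12 and 55.5 ± 3.31 FPKM, neither of which passed the test. PLOD2, the lysyl hydroxylase of the telopeptides, stood at 13.37, 12.14 and 13.56 FPKM in Ctrl and at 8.29, 8.45 and 6.34 FPKM in siPAIP1, and P4HA1, a catalytic subunit of prolyl hydroxylase, at 18.83, 18.27 and 18.03 against 13.64, 13.86 and 9.70 FPKM. Both were lower in every siPAIP1 library. Their log2 fold changes were -0.79 (SE 0.094, edgeR's quasi-likelihood test, adjusted p = 0.00414) and -0.60 (SE 0.11, edgeR, adjusted p = 0.0148). CRTAP, of the prolyl 3-hydroxylation complex, and the galactosyltransferase COLGALT2 fell by 0.30 each on the log2 scale (edgeR, adjusted p = 0.0341 and 0.0376).

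Of 19 genes for folding and export, 18 were tested, 1 rose and 2 fell (median -0.09). SERPINH1, which encodes the collagen chaperone HSP47, stood at 19.12, 18.77 and 19.79 FPKM in Ctrl and at 24.74, 26.70 and 23.20 FPKM in siPAIP1. It was higher in every siPAIP1 library (log2 fold change 0.34, SE 0.065, edgeR, adjusted p = 0.0168). The COPII coat genes SEC24D and SAR1B fell by 0.39 and 0.34 on the log2 scale (edgeR, adjusted p = 0.0358 and 0.0456). The prolyl isomerase PPIB and the chaperone HSPA5 were the highest, at 428 ± 33.8 and 128 ± 5.94 FPKM in Ctrl and 424 ± 52.1 and 115 ± 14.6 in siPAIP1 (SD, n = 3), and did not pass the test.

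Of 16 genes for propeptide removal and cross-linking, 11 were tested, 1 rose and 2 fell (median 0.09). LOXL4, a lysyl oxidase that cross-links collagen, stood at 15.37, 17.31 and 17.73 FPKM in Ctrl and at 10.86, 11.10 and 9.64 FPKM in siPAIP1. It was lower in every siPAIP1 library (log2 fold change -0.70, SE 0.077, edgeR, adjusted p = 0.00308). PCOLCE, which speeds the removal of C-propeptides, was low and fell from 0.997 ± 0.186 to 0.47 ± 0.04 FPKM (SD, n = 3, log2 fold change -1.11, edgeR, adjusted p = 0.0201), and the protease MEP1A rose from 0.963 ± 0.103 to 1.56 ± 0.279 FPKM (log2 fold change 0.66, edgeR, adjusted p = 0.0327). FURIN, at 42.1 ± 3.65 and 36.9 ± 4.40 FPKM, was the highest of the list and did not pass the test.

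Of 18 genes for collagen breakdown and its inhibitors, 10 were tested and TIMP3, an inhibitor of metalloproteinases, fell alone, from 8.19 ± 0.297 to 5.50 ± 0.908 FPKM (SD, n = 3, log2 fold change -0.61, edgeR, adjusted p = 0.0109). The proteases CTSB and PEPD were highest, at 138 and 58.4 FPKM in Ctrl and 128 and 50.1 in siPAIP1. Of 10 receptor genes, 7 were tested and ITGA10, the alpha chain of a collagen-binding integrin of cartilage, rose alone, from 0.10, 0.08 and 0.10 FPKM to 0.21, 0.26 and 0.31 FPKM (log2 fold change 1.45, edgeR, adjusted p = 0.0147). ITGB1 and DDR1 led the receptors at 92.8 and 13.8 FPKM in Ctrl and 103 and 13.2 in siPAIP1. Over these lists together, 3 of 58 tested genes rose and 9 fell, against the 5.68% and 6.20% of all genes tested, with a median log2 fold change of -0.04. Of these 12, only PLOD2 and LOXL4 kept their calls with each library left out in turn. The number that fell was 2 without Ctrl replicate 1 and 3 without Ctrl replicate 2 or 3. It was 5 without siPAIP1 replicate 1 and 4 without siPAIP1 replicate 2. The share of all genes called in these fits is not given here, so the drop cannot be read as particular to the lists. Without siPAIP1 replicate 3, 15 of 60 tested fell and 6 rose, where 12.4% of all genes were called lower and 11.8% higher.

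Markers of cell types were read beside these values, against the same 5.68% of all genes called higher and 6.20% called lower. All 12 hepatocyte markers were tested, and 6 fell in siPAIP1 (ALB, APOA1, TTR, TF, SERPINA1 and AHSG). Their summed level was 6651 to 7312 FPKM in Ctrl and 4683 to 6406 FPKM in siPAIP1, with APOA2 (2561 and 2494 FPKM) the highest. In each of the 6 that fell, siPAIP1 replicate 3 was the lowest library, and replicates 1 and 2 also lay below every Ctrl library. Marker calls without siPAIP1 replicate 3 are not given here. Of 12 fibroblast and stellate cell markers, 3 were tested and ACTA2 and TAGLN, both of the contractile cytoskeleton, rose by a log2 fold change of 0.67 each (edgeR, adjusted p = 0.00753 and 0.0127). The summed level of that list was 58.9 to 62.7 FPKM in Ctrl and 83.2 to 108 FPKM in siPAIP1. Nearly all of it came from ACTA2 (means of 43.7 and 71.3 FPKM) and TAGLN (17.2 and 27.9 FPKM). RGS5, the other gene tested, was at 0.093 and 0.10 FPKM and did not pass the test. The defining surface and matrix markers of the list, PDGFRB, THY1, DCN and LUM, were at means of 0.04 FPKM or lower in both groups.

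The chondrocyte markers were read because types II, IX and XXVII are cartilage collagens. Of 8 listed, 5 were tested and MATN3, a cartilage matrix protein, rose from 30.1 ± 0.491 to 42.6 ± 2.75 FPKM (SD, n = 3, log2 fold change 0.47, edgeR, adjusted p = 0.00535). SOX9, the regulator of cartilage genes that hepatic progenitors also express, was at 23.8 ± 2.08 and 20.1 ± 0.575 FPKM and did not pass the test. The list summed to 53.5 to 56.6 FPKM in Ctrl and 59.8 to 65.7 FPKM in siPAIP1. Nearly all of it came from MATN3 and SOX9. COMP, SOX5 and SOX6 were at means of 0.53 FPKM or lower in both groups. ACAN and HAPLN1 had no FPKM value, and CNMD was not among the genes counted. Endothelial markers summed to 0.26 to 0.39 FPKM in each library, PECAM1 and VWF being the highest. Of 10 leukocyte markers 5 were tested and none passed, LYZ, at 270 and 229 FPKM, being the highest. The part of any other cell type in the collagen values was not tested.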

How the data were processed

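RNA-seq of 6 HepG2 libraries was used. The count values are whole fragments per gene, deposited without normalization; the authors trimmed reads, aligned them to GRCh38 with TopHat2 (up to 4 mismatches) and kept unique matches. The authors also deposited FPKM values from these alignments. No source used here gives the counting tool, its use of strand or the gene annotation.

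Counts were analysed in R 4.3.3 with edgeR 4.0.16 (TMM, filterByExpr, glmQLFit and glmQLFTest with group as the only term, Benjamini-Hochberg over 15528 genes). Alternatives used limma 3.58.1 and DESeq2 1.42.0. Single values were compared by two-sided exact permutation. Named were each tested collagen gene, untested ones with at least 10 fragments in a library and, per pathway or marker list, genes with adjusted p under 0.05 and the 2 highest, except 1 that is not reported here. The members and lists were chosen with earlier results of these data known. Positions and transcripts are from GENCODE 44 and promoters from RefSeq (GRCh38.p14), with symbols matched by name. The floor for a count of 0 covers counting error only.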

Additional observations from a re-analysis of the deposited data

How the results depend on the processing

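The main test called 3 collagen genes higher and 1 lower, and 3 pathway genes higher and 9 lower. Scaling by RLE or by upper quartiles, library sizes of protein-coding genes, the stricter filter, DESeq2, the edgeR exact test and an adjusted p under 0.1 kept these counts within 1.5 times. With no filter on low counts 5 collagen genes were higher (3.85% of all genes), COL6A1 and COL7A1 being added. Limma on log2(FPKM + 1) and on log2(FPKM + 0.1) gave 0 collagen genes lower and 5 pathway genes lower each. On log2(FPKM + 1) with no filter there were 1 collagen gene higher and 0 lower, and 0 pathway genes higher and 1 lower. A fold change of at least 2 left 1 higher and 0 lower, and 1 and 1 for the pathway. The replicate block gave 0 collagen genes lower, 1 pathway gene higher and 5 lower. COL4A2 and COL5A2 then had adjusted p of 0.0736 and 0.0655 by edgeR. After centring in each group, libraries of the same number correlated at 0.26, -0.277 and -0.152. Centred values sum to 0 in a group, so these correlations cannot decide whether libraries of the same number were paired. Leaving out single libraries, fewer samples in each case, gave 0 to 3 collagen genes higher and 0 to 4 lower. For the pathway it gave 0 to 6 genes higher and 2 to 15 lower. Of these fits, the share of all genes called is given only for the one without siPAIP1 replicate 3. Log2 fold changes that turned sign when single libraries were left out ran from -0.15 to 0.45 for COL2A1, -0.38 to 0.12 for COL18A1, -0.88 to 0.087 for COL16A1, -0.37 to 0.70 for COL27A1 and -0.032 to 1.69 for COL7A1. PAIP1 ran from -2.09 to -1.84 and PLOD2 and LOXL4 kept their calls in the same fits. Other scalings set the median of all genes at 0.02 to 0.03. A count of 0 allows up to 3 fragments by counting error. For the other changes the cause was not tested.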
